A study of Mus musculus with 28 samples.

Results

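The genes described are 31 members of 2 linked systems, the assembly of peroxisomes and the synthesis of plasmalogens, together with the oxidation enzymes that work inside peroxisomes. They were taken from a given list of gene symbols and matched by Ensembl identifier, and they are 31 of the 41605 gene identifiers counted. The data are bulk poly-A RNA sequencing of peripheral nerve from wild-type C57BL/6J mice that were not perfused, with 4 libraries at each of 7 stages, 28 in all. Embryonic (E) and postnatal (P) days are written as the labels give them: the embryonic stages E13 and E17, and the postnatal stages P1, P5, P14, P24 and P60. For E13, nerves of several kinds lying distal to the dorsal root ganglia were pooled from a pair of embryos per library, although the tissue is labelled sciatic nerve, whereas E17 libraries came from the sciatic nerves of a pair of embryos and each postnatal library from 1 mouse. From E17 on the outer nerve layers were stripped off by hand. Each stage held male and female samples, and the labels do not tell which is which.

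Peroxisomes are small membrane-bound organelles that shorten very long and branched fatty acids and break down hydrogen peroxide. The first steps of plasmalogen synthesis also take place in them, and plasmalogens, ether phospholipids with a vinyl-ether bond, are abundant in myelin. Inherited loss of this machinery is known to damage peripheral nerve and its myelin, as in Refsum disease and rhizomelic chondrodysplasia punctata.

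Library totals ran from 13899895 to 37662780 counted reads. Levels are counts per 1000000 reads (CPM) after TMM scaling, which sets libraries to a common level through the bulk of genes, and a gene was called at a Benjamini-Hochberg adjusted p under 0.05 in edgeR's quasi-likelihood test over 17700 genes. The tissue label was checked against the Schwann cell markers Sox10 and S100b, which stood at 34.1 CPM or more and 8.58 CPM or more in every library, with their lowest levels at E13. The E13 libraries also held all 5 neuronal cell body markers at a sum of 318 to 565 CPM, against at most 27.5 CPM at any later stage, a sum of 592 CPM of skeletal muscle markers in replicate 2, and 3 erythroid markers at 3710 to 21500 CPM, the most in replicate 4, against at most 182 CPM later. In 3 libraries, E13 replicates 1 and 4 and P1 replicate 1, levels leaned with the GC content of genes (slopes of -1.365, 1.072 and -0.631 log2 units per 10 GC points, against -0.239 to 0.292 elsewhere). In bulk RNA, fewer cells of a type and less RNA per cell cannot be told apart.

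Several enzymes among the members carry address signals that the import receptors read, and they are shown because the receptors Pex5 and Pex7 are themselves members. Pex5 reads a type 1 signal at the very end of a protein, classically serine-lysine-leucine, and Pex7 a type 2 signal near its start. The first 4 lines give the last 30 bases of the coding sequence, 5′ to 3′ in coding sense, with the last 3 codons before the stop in capitals, and the other 2 lines give a stretch near the start with the 9 codons of the type 2 pattern in capitals (GENCODE M21, GRCm38).
Gnpat (chr8:124889286-124889315, plus strand): ataggaaaaccagccactGCAAAACTAtaa
Scp2 (chr4:108044750-108044779, minus strand): cagcttcagccgggcaaaGCTAAGCTGtga
Acot8 (chr2:164792892-164792921, minus strand): aagcctcaggtgtcagagAGTAAGCTAtag
Cat (chr2:103454756-103454785, minus strand): atggctgcgaagggaaaaGCTAACCTGtaa
Acaa1a start (chr9:119341515-119341556, plus strand): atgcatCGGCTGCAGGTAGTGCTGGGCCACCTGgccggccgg
Phyh start (chr2:4919085-4919129, plus strand): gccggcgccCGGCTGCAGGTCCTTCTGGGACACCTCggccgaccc
The pattern searched at the end (serine, alanine or cysteine, then lysine, arginine or histidine, then leucine or methionine) was found in 4 of 31 members, Gnpat, Scp2, Acot8 and Hsd17b4, and in 0.519% of 21599 coding genes. Catalase (Cat) ended in another triplet, shown in the fourth line, which the pattern does not take in. The type 2 pattern lay within the first 40 codons of 2 members, the thiolase Acaa1a and the phytanoyl-CoA hydroxylase Phyh, and of 0.116% of coding genes. Agps is also known as a type 2 cargo, and its start did not match the pattern used. In RefSeq promoter windows, held for 24 of 31 members, the direct repeat of AGGTCA with 1 base between the copies was found on either strand in 0 members and in 0.0481% of 27025 genes. The short Sox motif ACAAAG was found in 3 members, Pex11g, Pex26 and Phyh, and in 21.0% of genes. These matches describe letters only.

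From E17 on, E17 was the most frequent stage of the lowest level among the members. Of the 31 members, 30 had enough reads to be tested, and 25 of these changed over the 7 stages, where 88.8% of all genes tested were called. Called with the highest and lowest stage means at least 2-fold apart were 17 of the 30, against 70.0% of all genes tested. The 5 members that did not pass were Pex13, Pex14, Pex10, Pex11a and Acot8, of which limma-voom called Pex13 and Pex14. On library size only edgeR called Pex10, Pex11a and Acot8 and no longer called Agps. From E17 on, 20 of 30 members had their lowest mean at E17, against 28.8% of all genes tested, and without TMM, on library size only, 14 of 30 against 18.8%. The highest mean fell at P60 in 10 members, at P14 in 8, at P24 in 6 and at P1, P5 or E17 in the other 6, whereas over all genes it fell at P60 in 26.7%, at P14 in 8.73% and at P24 in 11.2%. The highest mean fell at P60 in 12 members, at E17 in 6, at P24 in 5 and at P14 in 0 on library size only, against 26.1%, 41.2%, 6.87% and 2.89% of all genes. The sum over all members was 1289 ± 27.6 CPM at E17, 2278 ± 28.1 CPM at P14 and 2244 ± 75.7 CPM at P60 (mean ± SD, n = 4). These means were 1485, 1865 and 2079 CPM on library size only, so levels compared across stages depend on TMM. With TMM, roles moved in opposite directions from P14 to P60 within this sum. The plasmalogen genes went from 723 to 487 CPM, docking and import receptors from 279 to 459 CPM and Cat from 282 to 384 CPM.

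**Figure D1:**
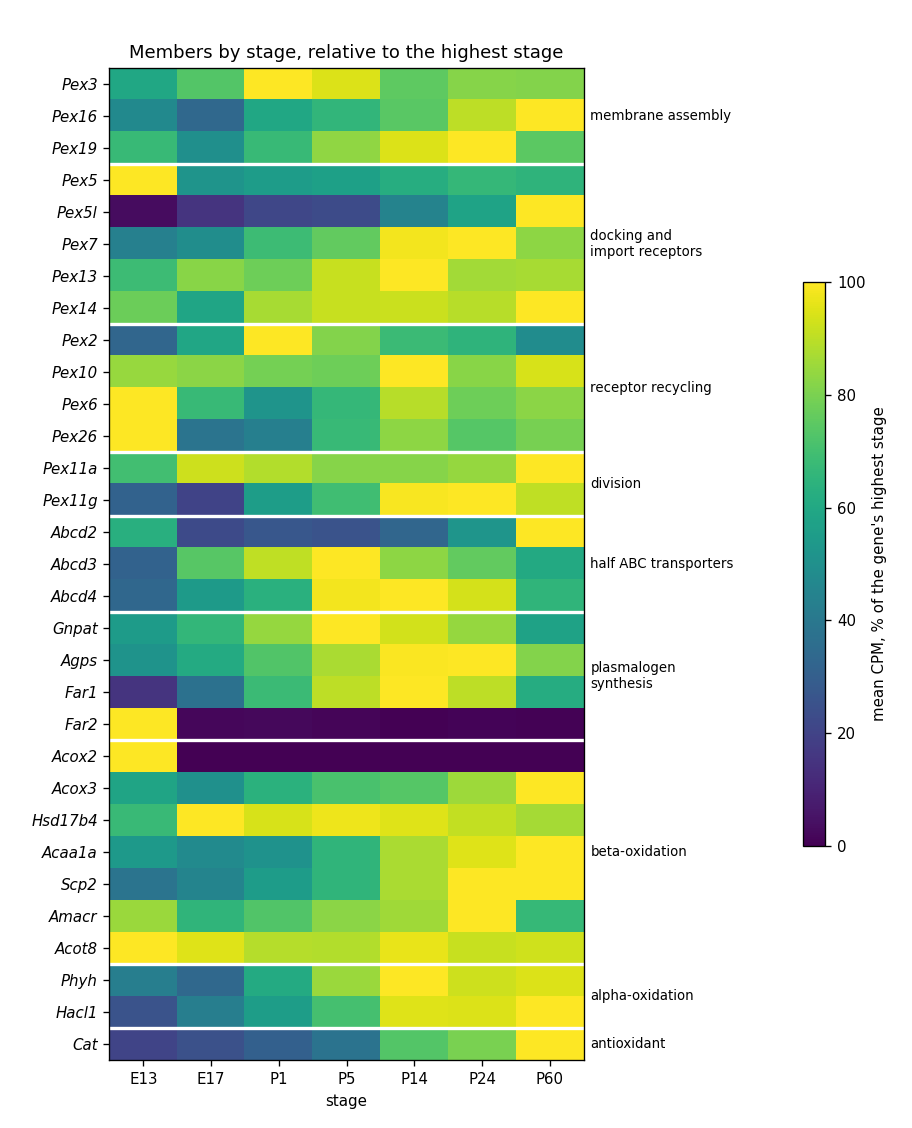
Mean CPM of each of the 31 members at each stage (n = 4 libraries a stage), as a percentage of the gene's own highest stage (colour), with role groups separated by white lines. Most genes are darker at E17 than at P14, Gnpat and Abcd3 are brightest at P5, Cat and Pex5l at P60, and Far2 and Acox2 are bright at E13 alone.

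Of the 4 plasmalogen genes Gnpat, Agps and Far1 rose from E17 to P14, and Far2 had nearly all its reads at E13. By P60 Gnpat fell again, as Agps and Far1 did by limma-voom but not by edgeR. Gnpat makes the first acyl-dihydroxyacetone phosphate, Agps swaps its acyl chain for a fatty alcohol to form the ether bond, and Far1 and Far2 reduce fatty acyl-CoA to that alcohol. In GRCm38, Gnpat lies at chr8:124863033-124890057 (plus strand), Agps at chr2:75832177-75931350 (plus strand), Far1 at chr7:113513834-113571511 (plus strand) and Far2 at chr6:148047259-148182758 (plus strand), and the reads counted are those over their exons. Far1 stood at 123, 50.2, 34.1 and 19.4 CPM in the E13 libraries and at 139, 145, 133 and 148 CPM at E17. At P1 Far1 measured 313, 268, 224 and 229 CPM and at P5 333, 366, 299.7 and 370.1 CPM. Later Far1 values were 376, 423, 338 and 382 CPM at P14, 282, 433, 304 and 348 at P24 and 228, 248, 228 and 238 at P60. The Far1 ranges of E17 and P14 did not overlap, and the 4 E13 values spread widely, with the highest and the lowest in the 2 libraries that lean most with GC content. From E17 to P14 Far1 rose from 141 ± 6.75 to 380.0 ± 34.7 CPM (SD, n = 4; log2 fold change 1.43 ± 0.30 (SE), adjusted p = 0.000201). From P14 to P60 its mean went to 236 ± 9.71 CPM, all 4 values below the 4 of P14, with a log2 fold change of -0.69 ± 0.29 (SE) that did not pass in edgeR (adjusted p = 0.0801). Limma-voom called Far1 lower at P60 than at P14, and DESeq2 and edgeR on library size only did not.

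Gnpat stood at 70.1, 88.9, 93.2 and 106 CPM in the E13 libraries and at 108, 107, 104 and 113 CPM at E17. At P1 Gnpat measured 134, 140.3, 139 and 136 CPM and at P5 163, 156, 161 and 174 CPM. Later Gnpat values were 154, 142, 162 and 152 CPM at P14, 145, 144, 128 and 133 at P24 and 93.2, 96.1, 93.8 and 94.8 at P60. The mean of Gnpat was highest at P5, and all P60 values lay below every E17 value. It rose from E17 to P14 (log2 fold change 0.50 ± 0.09 (SE), adjusted p = 3.43e-05) and fell from P14 to P60 (-0.69 ± 0.09 (SE), adjusted p = 1.21e-06) and from P24 to P60 (-0.54 ± 0.09 (SE), adjusted p = 9.29e-05). Part of the gene shares 280 bases of exon with Gm16163 on the same strand, which held 1264 reads in all against 80282 for Gnpat. Agps stood at 162, 90.8, 83.3 and 58.1 CPM in the E13 libraries and at 119, 119.9, 111 and 119 CPM at E17. At P1 Agps measured 173, 139, 123 and 125 CPM and at P5 155, 166, 161 and 187 CPM. Later Agps values were 195, 195, 182 and 190.4 CPM at P14, 173, 224, 178 and 193 at P24 and 152, 171, 142 and 159.8 at P60. The P14 values of Agps all lay above those of E17, and the P60 values lay below those of P14 and within the P1 range. It rose from E17 to P14 (log2 fold change 0.70 ± 0.18 (SE), adjusted p = 0.00158), and the change from P14 to P60 did not pass in edgeR (-0.29 ± 0.18 (SE), adjusted p = 0.251). Limma-voom called Agps lower at P60 than at P14, and DESeq2 did not. Without TMM, on library size only, the Gnpat and Agps rises to P14 did not pass (adjusted p = 0.96 for Gnpat and 0.323 for Agps).

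Far2 stood at 9.47, 6.46, 7.04 and 5.95 CPM in the E13 libraries and at 0.1100, 0.0528, 0.272 and 0.0628 CPM at E17. At P1 Far2 measured 0, 0.2499, 0.109 and 0.248 CPM and at P5 0.0417, 0.143, 0.171 and 0.0367 CPM. Later Far2 values were 0, 0.0565, 0 and 0.03798 CPM at P14, 0.0788, 0, 0.0494 and 0.1505 at P24 and 0.146, 0, 0 and 0.0628 at P60. Far2, the second fatty acyl-CoA reductase, was thus an E13 gene, with 754 reads over the 4 E13 libraries and at most 17 over the libraries of any later stage. It fell from E13 to E17 (log2 fold change -5.68 ± 0.57 (SE), adjusted p = 2.16e-09), and the later values rest on 0 to 8 reads a library. The E13 libraries differ from the others in the nerves taken, in neuronal cell body, muscle and erythroid markers and in stage, which cannot be told apart. Far2 shares 837 bases of exon with Ergic2 on the opposite strand, and the strand setting of the counting is not given in the sources used here. Per kilobase of exon at P14, Far1 (47.2 ± 4.31), Gnpat (42.5 ± 2.32) and Agps (20.2 ± 0.648 CPM per kb, mean ± SD, n = 4) were all among the 10 highest members, and the order of Far1 and Gnpat was within their spread. Length, here and below, is that of the merged exons of all annotated transcripts of a gene. Levels per length and their ratios between genes therefore depend on the annotation. The ratio of Far1 to Gnpat, per length, went from 0.582 ± 0.0169 at E17 to 1.12 ± 0.164 at P14 and stood at 1.11 ± 0.0306 at P60 (SD, n = 4).

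**Figure D2:**
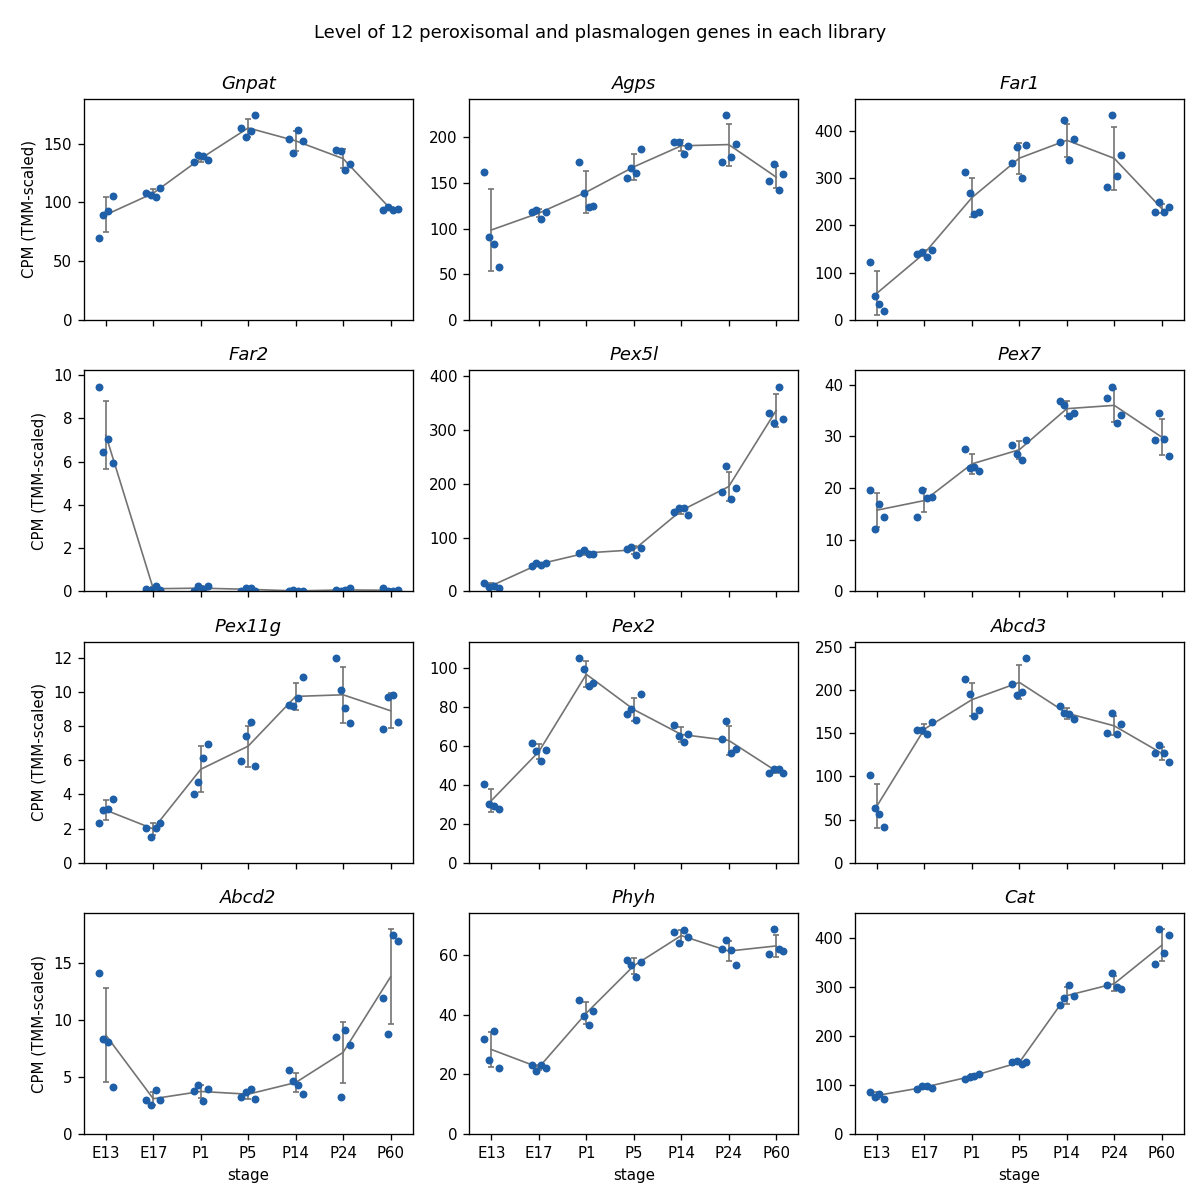
CPM of 12 members in each library (points) by stage, with the stage mean and SD (line and bars, n = 4), on linear axes that start at 0. Gnpat, Agps and Far1 are highest between P5 and P24, Far2 is near 0 after E13, and Pex5l and Cat are highest at P60.

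The later steps of the pathway were read from a list of 35 other peroxisomal and ether lipid genes. The desaturase that forms the vinyl-ether bond, coded by Tmem189, had the widest range of these genes after the sparsely read Slc27a2 (226 reads in all), an acyl-CoA synthetase. Tmem189 stood at 17.7, 26.8, 29.7 and 39.3 CPM in the E13 libraries and at 36.1, 41.04, 43.5 and 41.8 CPM at E17. At P1 Tmem189 measured 119.9, 213, 189 and 226 CPM and at P5 417, 379, 408 and 347 CPM. Later Tmem189 values were 624, 704, 812 and 729.8 CPM at P14, 918, 854, 782 and 662 at P24 and 551, 743, 622 and 682 at P60. Tmem189 values of each stage from P1 to P14 lay above those of the stage before. It rose from E17 to P14 with a log2 fold change of 4.14 ± 0.20 (SE, adjusted p = 1.07e-15). Its 3265 bases of exon share 694 with Gm20431 on the same strand, so its level is uncertain. Selenoi, an ethanolamine phosphotransferase of the later pathway chosen after its values were seen, rose from 57.4 ± 3.69 to 189 ± 8.63 CPM (log2 fold change 1.72 ± 0.16, adjusted p = 6.62e-10) and fell to 116 ± 7.12 CPM at P60 (-0.70 ± 0.16, adjusted p = 0.00115). In all, 23 of the 35 were higher at P14 than at E17, 0 lower and 12 not called, with a median log2 fold change of 0.49. Of all genes tested 56.5% were called, 29.5% higher and 27.0% lower, with a median of 0.00. The split of the 35 was 11 higher and 8 lower on library size only, against 17.8% higher and 47.3% lower over all genes. Chosen after their values were seen, the bifunctional enzyme Ehhadh (2.50 ± 0.14), the epoxide hydrolase Ephx2 (3.65 ± 0.25) and the pipecolic acid oxidase Pipox (3.08 ± 0.32, log2 fold change ± SE) rose most beside Tmem189.

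Among the import receptors, the type 2 receptor Pex7 rose from E17 to P14, and the change of the type 1 receptor Pex5 passed in some fits only. Pex7 stood at 19.6, 12.03, 16.97 and 14.3 CPM in the E13 libraries and at 14.5, 19.6, 18.04 and 18.2 CPM at E17. At P1 Pex7 measured 27.5, 23.9, 24.03 and 23.4 CPM and at P5 28.3, 26.7, 25.4 and 29.3 CPM. Later Pex7 values were 36.9, 36.2, 33.98 and 34.4 CPM at P14, 37.5, 39.6, 32.7 and 34.2 at P24 and 29.2, 34.5, 29.6 and 26.2 at P60. The Pex7 values of P14 all lay above those of E17 and of P5. Pex7 rose from E17 to P14 with a log2 fold change of 1.01 ± 0.13 (SE, adjusted p = 1.12e-07). Pex5 means were 31.3 ± 2.77 CPM at E17 and 37.6 ± 1.14 CPM at P14 (log2 fold change 0.26 ± 0.12 (SE), adjusted p = 0.0745 in edgeR, and -0.23 on library size only), after 60.4 ± 13.6 CPM at E13. Limma-voom called Pex5 higher at P14 than at E17, and so did edgeR with the replicate number as a block (adjusted p = 0.0439). The ratio of Pex7 to Pex5, per length, was 0.184 ± 0.0301 at E17, 0.307 ± 0.0168 at P14 and 0.25 ± 0.0439 at P60 (SD, n = 4). Its size depends on the merged exon lengths, 12092 bases for Pex7 and 3943 for Pex5. The docking proteins Pex13 and Pex14 had stage means of 24.4 to 35.6 and 13 to 22.1 CPM, and edgeR with TMM called neither over the 7 stages, whereas limma-voom called both. Pex14 rose from E17 to P14 (log2 fold change 0.65 ± 0.27, adjusted p = 0.0443), a call lost without any one of E17 replicates 1, 2 and 3 or P14 replicates 2, 3 and 4 (adjusted p = 0.0596 to 0.133).

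Pex5l is a Pex5 relative, known as TRIP8b, that regulates HCN channels in neurons. Pex5l stood at 16.5, 8.96, 10.2 and 6.42 CPM in the E13 libraries and at 48.1, 53.8, 48.5 and 52.2 CPM at E17. At P1 Pex5l measured 72.02, 76.1, 69.5 and 68.8 CPM and at P5 78.3, 83.3, 67.2 and 80.4 CPM. Later Pex5l values were 147, 156, 156 and 143 CPM at P14, 184, 233, 171 and 192 at P24 and 332, 312, 381 and 321 at P60. From E13 to P60 every stage lay above the stage before without overlap, except P5, whose values overlapped those of P1. The log2 fold changes were 2.26 ± 0.17 from E13 to E17 (adjusted p = 7.64e-12), 1.57 ± 0.16 from E17 to P14 (adjusted p = 3.83e-09) and 1.16 ± 0.16 from P14 to P60 (SE, adjusted p = 2.35e-06). Per length, Pex5l stood at 0.0867 ± 0.0573 of the Pex5 level at E13, 1.78 ± 0.0278 at P14 and 3.82 ± 0.395 at P60. Beside the rise from P14 to P60, the 5 neuronal cell body markers summed to 5.88 to 7.07 CPM at P14 and 18.6 to 27.5 CPM at P60, 2 of 5 over 1 CPM in every library at both stages, and their part was not tested. At E13, where Pex5l was lowest, the same markers summed to 318 to 565 CPM, and at E17 to 12.4 to 19.4 CPM.

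Membrane proteins are brought to peroxisomes by the carrier Pex19, which docks on Pex3, and Pex16 helps place Pex3. Pex19 stood at 89.1, 112, 140.2 and 174 CPM in the E13 libraries and at 98.2, 87.5, 98.7 and 97.5 CPM at E17. At P1 Pex19 measured 119.7, 136, 126 and 135 CPM and at P5 167, 148, 159 and 164 CPM. Later Pex19 values were 187, 182, 186 and 172 CPM at P14, 206, 195, 183 and 181 at P24 and 130.2, 163, 147 and 132 at P60. Pex19 was lowest at E17 and highest around P24. It rose from E17 to P14 with a log2 fold change of 0.93 ± 0.13 (SE, adjusted p = 7.38e-07) and fell from P14 to P60 by 0.34 ± 0.13 (SE, adjusted p = 0.0435), the latter lost without any one of P14 replicates 1, 2, 3 and 4 or P60 replicates 1, 3 and 4 (adjusted p = 0.0538 to 0.118). Pex16 stood at 3.61, 9.21, 8.02 and 12.5 CPM in the E13 libraries and at 5.88, 5.86, 6.28 and 5.53 CPM at E17. At P1 Pex16 measured 6.45, 10.3, 11.3 and 13.6 CPM and at P5 11.4, 11.8, 12.3 and 10.5 CPM. Later Pex16 values were 12.6, 11.2, 15.1 and 13.1 CPM at P14, 20.02, 14.1, 16.3 and 12.8 at P24 and 17.5, 17.8, 15.8 and 19.02 at P60. Pex16, a minor gene here, at 7.33 ± 0.904 against 47.6 ± 1.74 CPM per kb for Pex19 at P14, had all its P60 values above all E17 values. Pex16 rose from E17 to P14 (log2 fold change 1.14 ± 0.24, adjusted p = 0.00021). Pex3 stayed between stage means of 19.1 and 32.1 CPM, with its highest at P1.

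Pex2 and Pex10 belong to the ubiquitin ligase that frees spent receptors, Pex6 is a motor ATPase that pulls them out, and Pex26 anchors it. Pex2 stood at 40.4, 30.5, 29.4 and 27.7 CPM in the E13 libraries and at 61.5, 57.3, 52.1 and 58 CPM at E17. At P1 Pex2 measured 105, 99.6, 90.8 and 92.3 CPM and at P5 76.5, 78.98, 73.3 and 86.7 CPM. Later Pex2 values were 70.9, 65.3, 61.9 and 66.1 CPM at P14, 63.9, 72.9, 56.5 and 58.7 at P24 and 46.3, 48.2, 48.1 and 46.3 at P60. Pex2 had its highest values at P1, above those of every other stage, and its P60 values lay below all from E17 to P24. It rose by 0.76 ± 0.10 from E17 to P1 (log2, SE, adjusted p = 2.18e-06) and fell from P14 to P60 (-0.48 ± 0.10, adjusted p = 0.000736). Pex26 stood at 12.7, 17.1, 20.1 and 21.3 CPM in the E13 libraries and at 6.71, 7.82, 6.63 and 6.22 CPM at E17. At P1 Pex26 measured 7.14, 7.995, 7.33 and 8.38 CPM and at P5 13.6, 12.4, 10.9 and 10.98 CPM. Later Pex26 values were 15.3, 14.02, 14.2 and 15.5 CPM at P14, 17.1, 11.5, 10.2 and 13.6 at P24 and 15.8, 13.4, 15.8 and 11.5 at P60. Pex26 was highest at E13, lowest at E17 and P1, and its P5 values lay above those of P1. From E17 to P14 it rose with a log2 fold change of 1.11 ± 0.16 (SE, adjusted p = 1.42e-06). Pex10 and Pex6 had stage means of 6.36 to 8.17 and 14.7 to 28.3 CPM, and edgeR's test with TMM called neither in any of the 8 comparisons of stage pairs. By limma-voom both were higher at P14 than at E17 and at P5, and limma-voom, DESeq2 and edgeR on library size only called Pex6 lower at E17 than at E13.

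Pex11 proteins lengthen and divide peroxisomes. Over the 7 stages Pex11g, of the 2 measured members, was called, while Pex11a passed on library size only and not with TMM. Pex11g stood at 2.35, 3.07, 3.18 and 3.74 CPM in the E13 libraries and at 2.03, 1.53, 2.06 and 2.32 CPM at E17. At P1 Pex11g measured 4.05, 4.71, 6.16 and 6.98 CPM and at P5 5.96, 7.45, 8.21 and 5.69 CPM. Later Pex11g values were 9.25, 9.16, 9.64 and 10.9 CPM at P14, 11.98, 10.1, 9.09 and 8.16 at P24 and 7.82, 9.72, 9.82 and 8.23 at P60. The E17 values were the lowest, and the values of P14, P24 and P60 overlapped one another. Pex11g had the largest log2 fold change of the members from E17 to P14 (2.29 ± 0.20, adjusted p = 9.54e-11), and it was 1.46 ± 0.19 higher at P1 than at E17 (adjusted p = 1.28e-06). Pex11a had stage means of 5.44 to 7.79 CPM, and the ratio of Pex11g to Pex11a, per length, was 0.268 ± 0.0778 at E17 and 1.43 ± 0.187 at P14 (SD, n = 4). Of the stage pairs, edgeR with TMM called Pex11a in that of E17 with E13 alone (log2 fold change 0.40). On library size only Pex11a was lower at P14 than at E17 and higher at P60 than at P14.

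Of the 3 Abcd transporters Abcd4 rose from E17 to P14, and from P14 to P60 Abcd2 rose while Abcd3 and Abcd4 fell. Abcd3 brings branched-chain and other fatty acyl-CoA into peroxisomes, Abcd2 carries very long chain acyl-CoA, and Abcd4, despite its family, is known for moving cobalamin out of lysosomes. Abcd3 stood at 101, 63.6, 56.8 and 41.6 CPM in the E13 libraries and at 153, 154, 149 and 163 CPM at E17. At P1 Abcd3 measured 212, 196, 170.1 and 177 CPM and at P5 207, 194, 197 and 237 CPM. Later Abcd3 values were 181, 173, 172 and 166 CPM at P14, 150.5, 173, 149 and 161 at P24 and 126, 136, 127 and 117 at P60. Abcd3 was highest around P5 and its P60 values lay below those of every stage from E17 to P24. It fell from P14 to P60 (-0.45 ± 0.15, adjusted p = 0.0266), a call lost without any one of P14 replicate 1 or P60 replicates 1, 3 and 4 (adjusted p = 0.0521 to 0.0754). Abcd4 stood at 8.74, 14.8, 11.3 and 11.6 CPM in the E13 libraries and at 19.2, 17.5, 18.4 and 20.7 CPM at E17. At P1 Abcd4 measured 15.3, 22.9, 24.8 and 25.6 CPM and at P5 36.2, 33.1, 36.8 and 30.99 CPM. Later Abcd4 values were 35.4, 34.9, 36.8 and 32.6 CPM at P14, 34.1, 31.4, 32.7 and 32.7 at P24 and 22.4, 25.9, 20.5 and 22.4 at P60. Abcd4 reached its level by P5, held it to P24 and was lower at P60. It rose from E17 to P14 (log2 fold change 0.88 ± 0.14, adjusted p = 4.99e-06) and fell from P14 to P60 (-0.62 ± 0.14, adjusted p = 0.00113).

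Abcd2 stood at 14.1, 8.36, 8.12 and 4.16 CPM in the E13 libraries and at 3.02, 2.54, 3.88 and 3.02 CPM at E17. At P1 Abcd2 measured 3.83, 4.33, 2.92 and 3.94 CPM and at P5 3.29, 3.67, 3.98 and 3.12 CPM. Later Abcd2 values were 5.62, 4.69, 4.29 and 3.53 CPM at P14, 8.51, 3.24, 9.14 and 7.83 at P24 and 11.99, 8.78, 17.5 and 16.95 at P60. Abcd2 ran low from E17 to P5, scattered at P24 and was highest at P60, where its values lay above those of P14. It rose from P14 to P60 with a log2 fold change of 1.61 ± 0.30 (SE, adjusted p = 0.000134). The 5 adipocyte markers (Adipoq, Plin1, Cidec, Cdo1 and Car3) summed to 75.3, 39.3, 52.7 and 6.34 CPM at P14, 165, 6.38, 309 and 167 CPM at P24 and 227, 192, 461 and 597 CPM at P60 (replicates 1 to 4). All 5 were over 1 CPM in every P60 library and 2 of 5 in every P14 and P24 library. The P24 library with the least of these markers, replicate 2, also had the lowest Abcd2 of that stage, and at P60 the 2 libraries with the most of them had the highest Abcd2. Other markers moved with some of these libraries. P24 replicate 2 was also lowest of its stage for perineurial (518 against 760.0 to 785 CPM), endothelial (97.3 against 165 to 189 CPM) and fibroblast-like markers (2960 against 5420 to 5690 CPM). At P60 replicates 3 and 4 had the most perineurial markers (1290 and 1390 CPM, against 1250 and 989 CPM in replicates 1 and 2). The fibroblast-like markers there were 5240, 3810, 3850 and 4530 CPM and the endothelial 215, 193, 204 and 215 CPM (replicates 1 to 4). In neither did replicates 3 and 4 stand above the others. The part of any of these cell types in the Abcd2 level was not tested. The step from P24 to P60 was also called (0.95 ± 0.29, adjusted p = 0.0258), and that call was lost without any one of P24 replicate 2 or P60 replicates 3 and 4 (adjusted p = 0.0884 to 0.103).

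**Figure D3:**
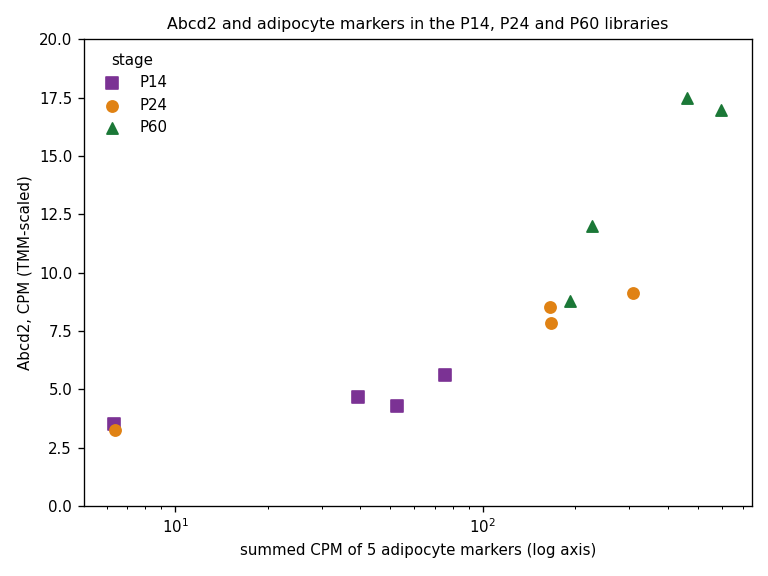
Abcd2 CPM (linear axis) against the summed CPM of 5 adipocyte markers (log axis) in each of the 4 libraries at P14 (squares), P24 (circles) and P60 (triangles). The P60 libraries lie at 192 to 597 CPM of markers and 8.78 to 17.5 CPM of Abcd2, and the P24 library with 6.38 CPM of markers is the lowest of its stage for Abcd2.

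Beta-oxidation inside peroxisomes runs from the oxidases Acox2 and Acox3 through the bifunctional enzyme Hsd17b4 to the thiolases Acaa1a and Scp2, with the racemase Amacr and the thioesterase Acot8 at its sides. Acaa1a stood at 25.9, 51.4, 50.9 and 59.5 CPM in the E13 libraries and at 40.6, 40.1, 43.5 and 43.4 CPM at E17. At P1 Acaa1a measured 27.9, 48.4, 50.1 and 51.3 CPM and at P5 59.8, 56.4, 62.2 and 49.9 CPM. Later Acaa1a values were 67.7, 75.4, 83.9 and 78.1 CPM at P14, 89.2, 85.4, 82.1 and 75.96 at P24 and 83.3, 94.4, 88.2 and 83.2 at P60. Acaa1a P14 values all lay above those of E17 and P5, and P1 replicate 1, a GC-leaning library, stood well under the other 3. Acaa1a rose from E17 to P14 (log2 fold change 0.86 ± 0.18, adjusted p = 0.000151). It has a near copy, Acaa1b, with 148 reads in all. Scp2 stood at 47.7, 38.2, 46.8 and 37.8 CPM in the E13 libraries and at 50.5, 46.9, 48.7 and 53.4 CPM at E17. At P1 Scp2 measured 66.3, 63.6, 56.95 and 57.7 CPM and at P5 70.3, 74.4, 72.7 and 72.7 CPM. Later Scp2 values were 103, 97.04, 99.7 and 87.9 CPM at P14, 110.2, 119.5, 107 and 106 at P24 and 106, 112, 112 and 114 at P60. Scp2, a thiolase that also carries sterols and lipids, had all its values from P1 to P60 above those of E17. Scp2 rose from E17 to P14 with a log2 fold change of 0.96 ± 0.09 (SE, adjusted p = 3.8e-10), of which 0.42 ± 0.09 came after P5 (adjusted p = 0.000517).

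Acox3, the oxidase of branched chains, went from 24.5 ± 0.6400 CPM at E17 to 35.97 ± 0.866 at P14 and 48.8 ± 4.48 at P60 (SD, n = 4). It rose in both steps (log2 fold changes 0.56 ± 0.10, adjusted p = 1.71e-05, and 0.44 ± 0.10, adjusted p = 0.000709). Hsd17b4 had stage means from E17 on of 108 to 124 CPM, and of the 8 stage pairs it was called in that of E17 with E13 alone (84.4 ± 8.47 CPM; log2 fold change 0.56 ± 0.08, adjusted p = 2.08e-06). Amacr ranged over 5.82 to 8.902 CPM and was called higher at P14 than at E17 (0.39 ± 0.16, adjusted p = 0.0348). That call was lost without any one of E17 replicates 1, 2 and 4 or P14 replicates 1, 3 and 4 (adjusted p = 0.0508 to 0.119), and the log2 fold change was -0.10 on library size only. Acot8 lay between 4.53 and 5.13 CPM and edgeR's test with TMM called it in no comparison, but over the 7 stages on library size only. Acox2, the oxidase of bile acid side chains, failed the low-count filter. It had 31 reads in all, 6 to 10 in each E13 library and 0 in each of the 24 later ones, which puts E13 at least 1.62-fold higher than 3 reads in the shallowest E17 library.

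Alpha-oxidation, which removes 1 carbon from phytanic acid, includes a step by Phyh and a later one by the lyase Hacl1. Phyh stood at 31.8, 24.8, 34.6 and 22.2 CPM in the E13 libraries and at 23.04, 21.1, 23.2 and 22.1 CPM at E17. At P1 Phyh measured 45.1, 39.5, 36.4 and 41.1 CPM and at P5 58.4, 56.7, 52.6 and 57.8 CPM. Later Phyh values were 67.6, 63.8, 68.4 and 65.97 CPM at P14, 61.9, 65.01, 61.5 and 56.7 at P24 and 60.2, 68.5, 61.99 and 61.2 at P60. The Phyh values of P1, P5 and P14 each lay above those of the stage before, and those of P14 to P60 overlapped. The step from P5 to P14 was not called by edgeR, but was by DESeq2 and limma-voom. From E17 to P14 Phyh rose with a log2 fold change of 1.57 ± 0.11 (SE, adjusted p = 1.36e-12). Hacl1 stood at 6.19, 8.08, 7.37 and 6.32 CPM in the E13 libraries and at 13.03, 10.03, 12.3 and 11.3 CPM at E17. At P1 Hacl1 measured 15.5, 14.9, 13.9 and 16.8 CPM and at P5 20.4, 19.9, 17.8 and 19.02 CPM. Later Hacl1 values were 22.6, 26.8, 26.8 and 27.7 CPM at P14, 27.2, 26.5, 25.5 and 24.6 at P24 and 28.9, 29.2, 26.4 and 24.8 at P60. Hacl1 followed with a log2 fold change of 1.15 ± 0.11 (SE, adjusted p = 7.06e-10) and overlapping values from P14 to P60. Hacl1 shares 1540 bases of exon with Gm49387 on the same strand, which holds 10369 reads against 11402 for Hacl1, so its level is uncertain.

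Cat stood at 85.1, 76.7, 82.8 and 71.1 CPM in the E13 libraries and at 92.2, 97.7, 98.1 and 94.7 CPM at E17. At P1 Cat measured 113, 117, 119 and 123 CPM and at P5 147, 148, 143 and 147 CPM. Later Cat values were 264, 278, 304 and 282 CPM at P14, 303, 328, 299 and 296 at P24 and 347, 417, 368 and 405 at P60. Cat, which breaks down hydrogen peroxide, was called higher in every step between neighbouring stages except P14 to P24. On library size only the first 3 of these 5 calls were lost, E13 to E17 (0.03, adjusted p = 0.787), E17 to P1 (0.18, adjusted p = 0.0696) and P1 to P5 (0.11, adjusted p = 0.313). The largest step was from P5 to P14 (log2 fold change 0.95 ± 0.08, adjusted p = 5.69e-10), and from P14 to P60 it rose by 0.45 ± 0.08 (SE, adjusted p = 6.86e-05). Cat was the highest member per length at P14, at 108 ± 6.43 CPM per kb.

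The comparison of P14 with E17 asks how the myelinating nerve differs from the nerve before myelin. In it, 18 of 30 members were higher and 0 lower, and 9 of 30 were higher by at least 2-fold, where 56.5% of all genes were called, 18.0% higher by 2-fold, 29.5% of all genes higher and 27.0% lower. The median log2 fold change was 0.60 over the members and 0.00 over all genes, and 27 of 30 members were above 0. Library size only shifts the median of all genes by -0.48, and the split of members was then 12 higher and 5 lower (Far2, Hsd17b4, Pex11a, Pex2 and Pex3), with Pex14, Gnpat, Agps, Acox3, Acaa1a and Amacr no longer called higher and 18 of 30 members above 0. On that scaling the shares were 17.8% higher and 47.3% lower over all genes. By role, 3 of 4 plasmalogen genes rose, 2 of 3 of membrane assembly, 3 of 5 of docking and receptors, 1 of 4 of recycling, 1 of 2 of division, 1 of 3 transporters, 4 of 6 tested of beta-oxidation, both of alpha-oxidation and Cat. Without the 3 GC-leaning libraries, 24 members and 64.6% of all genes were called. Over the same interval the 3 myelinating Schwann cell markers Mbp, Ncmap and Mag summed to 1140 to 1330 CPM at E17 and 45900 to 59700 CPM at P14, and the 2 proliferation markers to 1730 to 1810 and 91 to 122 CPM. The perineurial markers summed to 244 to 283 CPM at E17 and 452 to 551 CPM at P14, S100b had means of 43.5 and 672 CPM, and the 2 brown adipocyte markers went from at most 0.189 CPM to 42 and 53.4 CPM in P14 replicates 2 and 3, with 4.24 and 0.532 CPM in replicates 1 and 4. Their part in the members' change was not tested.

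**Figure D4:**
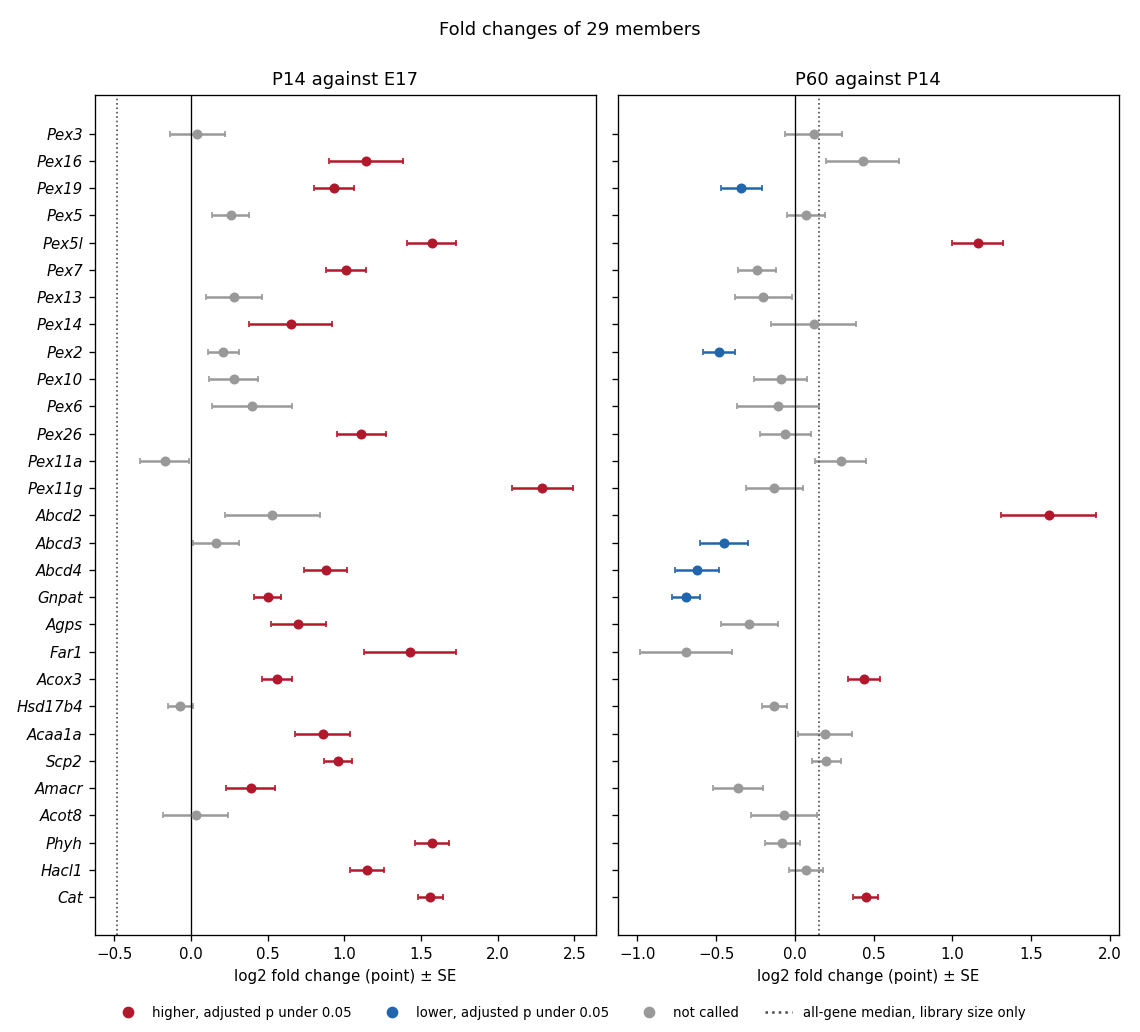
Log2 fold change ± SE of 29 members (30 tested, without Far2, whose later values rest on 0 to 8 reads) from E17 to P14 (left) and from P14 to P60 (right), by role from top to bottom, with called members in red (higher) or blue (lower). On the left 18 points are red and none of those shown blue, and on the right 4 are red and 5 blue. Dotted lines mark the all-gene median on library size only, -0.48 and 0.15, and on that scaling the left split was 12 higher and 5 lower and the right 7 and 3.

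From E17 to P1, 13 members were higher and 0 lower, against 29.5% of all genes called (15.1% higher and 14.4% lower). These were Pex16, Pex19, Pex5l, Pex7, Pex2, Pex11g, Gnpat, Far1, Acox3, Scp2, Phyh, Hacl1 and Cat, and on library size only the count was 8 higher, without Pex5l, Far1, Scp2, Hacl1 and Cat, against 11.6% higher and 19.3% lower over all genes. Over this step the myelinating Schwann cell markers summed to 1140 to 1330 CPM at E17 and 5030 to 11700 CPM at P1, the proliferation markers to 1730 to 1810 CPM at E17 and 825 to 1170 CPM at P1, the perineurial to 244 to 283 CPM at E17 and 150 to 226 CPM at P1, the endothelial to 175 to 212 CPM at E17 and 99.9 to 119 CPM at P1 and the erythroid to 80.9 to 182 CPM at E17 and 14.3 to 41.3 CPM at P1, and their part was not tested. The Far1 call (0.87 ± 0.30, adjusted p = 0.0257) was lost without any one of E17 replicates 1 and 3 or P1 replicates 1 and 2 (adjusted p = 0.0524 to 0.0732), that of Pex16 without P1 replicate 4 (adjusted p = 0.052) and that of Scp2 without P1 replicate 1 (adjusted p = 0.0518). From P1 to P5, 6 were higher (Pex26, Abcd4, Scp2, Phyh, Hacl1 and Cat) and Pex2 was lower, against 17.6% of genes called (10.3% higher and 7.33% lower). The myelinating markers meanwhile summed to 5030 to 11700 CPM at P1 and 26800 to 32400 CPM at P5, the proliferation markers to 825 to 1170 CPM at P1 and 442 to 565 CPM at P5 and the macrophage markers to 46.3 to 58.1 CPM at P1 and 96.3 to 113 CPM at P5, which was likewise not tested. The count of members was 4 without P1 replicate 2, P5 replicate 1 or P5 replicate 2, and on library size only it was 2 higher (Pex26 and Abcd4) and 1 lower (Pex2), against 6.52% higher and 18.2% lower over all genes. The Pex2 call was lost without any one of P1 replicates 1, 2 and 4 or P5 replicates 1, 2 and 3 (adjusted p = 0.0568 to 0.159), the Scp2 call without any one of P1 replicates 2, 3 and 4 or P5 replicates 1, 2, 3 and 4 (adjusted p = 0.0684 to 0.168) and the Hacl1 call without any one of P1 replicates 2 and 3 or P5 replicates 1 and 2 (adjusted p = 0.0719 to 0.0991).

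From P5 to P14, 6 members were higher and 0 lower (Pex5l, Pex7, Pex11g, Scp2, Hacl1 and Cat), against 29.6% of genes called (15.4% higher and 14.2% lower). On library size only, 3 were higher (Cat, Pex5l and Scp2) and 4 lower (Abcd3, Gnpat, Pex2 and Pex3), against 10.8% higher and 23.7% lower over all genes. Beside these 6, the myelinating markers summed to 26800 to 32400 CPM at P5 and 45900 to 59700 CPM at P14, the perineurial to 173 to 218 CPM at P5 and 452 to 551 CPM at P14, the proliferation markers to 442 to 565 CPM at P5 and 91 to 122 CPM at P14 and the brown adipocyte markers to at most 0.0834 CPM at P5 and to 42 and 53.4 CPM in P14 replicates 2 and 3, and their part was not tested. The Pex7 call was lost without any one of P14 replicates 1 and 2 or P5 replicates 2 and 3 (adjusted p = 0.056 to 0.0757) and the Pex11g call without any one of P14 replicates 3 and 4 or P5 replicates 1 and 4 (adjusted p = 0.0559 to 0.106). Between P14 and P24 edgeR called 0 of 30 members, with 4 at an unadjusted p under 0.05 (Abcd2, Acox3, Pex5l and Scp2), where it called 5.45% of all genes (2.72% higher and 2.72% lower). For the same step DESeq2 called 0 members and 7.66% of all genes, and limma-voom 5 members (Abcd2, Acox3, Pex5l and Scp2 higher, Gnpat lower) and 18.9% of all genes.

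The comparison of P60 with P14 sets the adult nerve beside the nerve in which myelin grows. In it 4 members were higher (Pex5l, Abcd2, Acox3 and Cat) and 5 lower (Pex19, Pex2, Abcd3, Abcd4 and Gnpat), against 29.9% of all genes called, 14.2% higher and 15.7% lower. Of the 30, Pex5l and Abcd2 were called with at least 2-fold, against 12.9% of all genes. Without the 3 GC-leaning libraries, none of which is from either stage, 14 members and 42.8% of all genes were called. The median log2 fold change was -0.08 over the members and -0.02 over all genes. On library size only the median of all genes was 0.15 and the split was 7 higher and 3 lower (Abcd4, Gnpat and Pex2), with Pex19 and Abcd3 no longer called, against 31.6% of all genes called and 21.5% called higher. The members above 0 were 13 of 30 with TMM and 20 on library size only. The 4 plasmalogen genes had a median of -0.49, the sparse Far2 among them, with Gnpat the 1 called by edgeR. Limma-voom called Agps and Far1 lower as well, where it called 47.9% of all genes. Beside these, the myelinating Schwann cell markers summed to 25200 to 34600 CPM at P60, against 45900 to 59700 at P14. Over the same step the perineurial markers summed to 452 to 551 CPM at P14 and 989 to 1390 CPM at P60, the adipocyte markers to 6.34 to 75.3 CPM at P14 and 192 to 597 CPM at P60 and the proliferation markers to 91 to 122 CPM at P14 and 2.55 to 4.14 CPM at P60, and their part was not tested. From P24 to P60, 3 were higher (Pex5l, Abcd2 and Cat) and 5 lower (Pex19, Pex2, Abcd4, Gnpat and Amacr), against 16.1% of genes called (6.84% higher and 9.23% lower), and the count was 5 without P60 replicate 4. On library size only it was 4 higher and 3 lower, with Pex19 and Pex2 no longer called, against 10.4% higher and 6.29% lower over all genes. The myelinating markers summed to 38400 to 49200 CPM at P24 and 25200 to 34600 CPM at P60 in this step, the perineurial to 518 to 785 CPM at P24 and 989 to 1390 CPM at P60 and the proliferation markers to 34.8 to 50.2 CPM at P24 and 2.55 to 4.14 CPM at P60, with no test of their part. The Pex19 call was lost without any one of P24 replicates 1 and 2 or P60 replicates 1 and 4 (adjusted p = 0.055 to 0.0795) and the Amacr call without P60 replicate 4 (adjusted p = 0.0624).

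The E13 libraries stand apart in the nerves taken, in stage and in the other tissues they hold, and these cannot be told apart. From E13 to E17, 11 members were higher and 8 lower, against 62.2% of all genes called (28.1% higher and 34.1% lower), a share near the background. The higher were Pex5l, Pex2, Pex11a, Abcd3, Abcd4, Gnpat, Far1, Hsd17b4, Scp2, Hacl1 and Cat, and the lower Pex19, Pex5, Pex26, Pex11g, Abcd2, Far2, Amacr and Phyh. The median of all genes was -0.08 with TMM and -0.33 on library size only, where the split was 7 higher and 13 lower, against 63.6% of all genes called and 43.6% called lower, with Pex11a, Gnpat, Scp2 and Cat no longer called higher, and Scp2 then had a log2 fold change of -0.03. With only E13 and E17 in the fit 11 members and 46.9% of all genes were called, and without the 3 GC-leaning libraries 25 members and 65.2%. Of the 19 calls, 14 held without any one library. The Pex11a call was lost without any one of E13 replicates 1 and 4 or E17 replicates 1 and 2 (adjusted p = 0.0946 to 0.126), that of Gnpat without E13 replicate 1 (adjusted p = 0.0781), that of Scp2 without any one of E13 replicates 2 and 4 or E17 replicates 1, 3 and 4 (adjusted p = 0.053 to 0.152), that of Amacr without any one of E13 replicate 4 or E17 replicates 1, 2 and 4 (adjusted p = 0.0591 to 0.181) and that of Phyh without E13 replicate 3 (adjusted p = 0.0504).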

How the data were processed

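Poly-A RNA of mouse peripheral nerve was sequenced from TruSeq stranded libraries, 4 at each of 7 stages. The authors deposited 1 table of raw read counts per Ensembl gene, made with STAR 2.6.1c and featureCounts. The submitters' processing notes name the mouse build GRCm38.p5, whereas the study's methods write a human build name. The strand and multi-mapping settings of the counting are not given in the sources used here, so levels of genes that overlap others are uncertain. All 28 columns were matched to samples by title, and groups are the stages in the labels. Replicate columns all differed by more than sampling noise.

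From the deposited counts, genes were filtered with edgeR's filterByExpr (17700 kept), scaled by TMM and fitted with edgeR 4.0.16's quasi-likelihood test over all 28 libraries in R 4.3.3, with p-values adjusted by Benjamini-Hochberg over all genes tested. All tests were two-sided. Library totals of 13899895 to 37662780 counts set the precision, and counting floors cover counting error only. SD is over libraries and SE is that of the log2 fold change. Alternatives were library size only, DESeq2 1.42.0 and its size factors, limma 3.58.1 voom, other filters, a 2-fold minimum, GC correction, fewer stages, a replicate block and each library left out. The fit was also run on counts simulated with known changes, a result not reported here. Members called over the 7 stages with stage means at least 2-fold apart, the 4 plasmalogen enzymes and the widest member of each role are given in every library. The other genes of the pathway were counted, with the 2 widest named. Selenoi, Ehhadh, Ephx2 and Pipox were also named, after their values were seen, and Acaa1b as the near copy of a member. The members and lists were chosen with earlier results of these data known. Coding sequences and exon overlaps came from GENCODE M21 on GRCm38, promoters from RefSeq.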

Additional observations from a re-analysis of the deposited data

Results flagged for a closer look

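In 9 of the 209 groups of 4 libraries looked at, the highest or lowest library stood far from the other 3 (by Dixon's test at the 95% level). Chance alone gives this in about 1 in 20 groups. Of the 9, 4 were P1 replicate 1, the library with a GC slope of -0.631. There Pex7 stood at 27.5 CPM against 23.4 to 24 in the others, Pex14 at 8.67 against 21.9 to 24.3, Pex6 at 8.49 against 16.2 to 17.3 and Acaa1a at 27.9 against 48.4 to 51.3. Amacr at E13 replicate 4, another GC-leaning library, measured 9.58 CPM against 6.76 to 7.15.

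The other 4 were in libraries without such a lean. Pex19 at E17 replicate 2 stood at 87.5 CPM against 97.5 to 98.7, and Agps at E17 replicate 3 at 111 CPM against 119 to 119.9. Pex11a at P14 replicate 4 measured 5.96 CPM against 6.50 to 6.54. Amacr at P24 replicate 2 measured 9.68 CPM against 8.62 to 8.67. The part of GC content in these values was not tested.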

How the results depend on the processing

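Counts of members called (of 30 tested) moved by over 1.5 times as follows. With a 2-fold minimum they were 6 for E17 against E13, 1 for P1 against E17, 0 for P5 against P1, 0 for P14 against P5, 0 for P60 against P24, 9 for P14 against E17 and 2 for P60 against P14, where 35.5%, 11.7%, 5.84%, 12%, 5.96%, 31.4% and 12.9% of all genes passed, in this order. On library size only they were 8 for P1 against E17 and 3 for P5 against P1 (30.8% and 24.7% of all genes), and without a low-count filter 3 for P5 against P1 (8.85% of a larger set of genes). With the compared stages only they were 11 for E17 against E13 (46.9% of all genes), 16 for P14 against P5, 1 for P24 against P14 and 15 for P60 against P14. With the GC trend removed they were 14 for P5 against P1, 12 for P14 against P5, 1 for P24 against P14 and 14 for P60 against P14. By limma-voom they were 14 for P5 against P1, 16 for P14 against P5, 5 for P24 against P14, 13 for P60 against P24 and 16 for P60 against P14. Without the 3 GC-leaning libraries, a setting chosen after seeing the data, they were 13 for P5 against P1, 15 for P14 against P5, 3 for P24 against P14, 13 for P60 against P24 and 14 for P60 against P14. Without the E13 libraries they were 11 for P5 against P1, 13 for P14 against P5, 3 for P24 against P14 and 13 for P60 against P24. The share of all genes called rose too under the settings that raised these counts, to 26.6% to 37.8% for P5 against P1, 41.8% to 53.6% for P14 against P5, 11.5% to 18.9% for P24 against P14, 29.4% to 32.3% for P60 against P24 and 41.1% to 51.1% for P60 against P14. The cause was not tested. DESeq2, its size factors and the filter at 1 CPM moved no count by over 1.5 times.

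Leaving out 1 library at a time gave 25 to 27 members over 7 stages, 16 to 25 for E17 against E13, 12 to 13 for P1 against E17, 4 to 6 for P5 against P1, 5 for P14 against P5, 0 for P24 against P14, 5 to 8 for P60 against P24, 16 to 19 for P14 against E17 and 7 to 10 for P60 against P14. The share of all genes called was then, in this order, 86.6% to 92.9%, 57.4% to 69.0%, 24.3% to 27.7%, 13.4% to 15.1%, 23.8% to 25.5%, 3.57% to 5.44%, 11.8% to 13.6%, 51.3% to 52.3% and 24.8% to 27.0%, and without E13 replicate 1, which gave the 25 for E17 against E13, it was the highest of its range. On library size only the members with a log2 fold change above 0 numbered 18 in place of 27 for P14 against E17 (Pex2 and Pex3, at 0.21 and 0.04 with TMM, were then called lower), 14 in place of 23 for P5 against P1, 15 in place of 24 for P14 against P5 and 20 in place of 13 for P60 against P14, and 121 of 217 CPM levels and 65 of 70 sums moved by more than 1 SD. Direction also reversed there, with no call, for Scp2 from E13 to E17 (-0.03, adjusted p = 0.826), Amacr from E17 to P14 (-0.10, adjusted p = 0.568) and Pex5 from E17 to P14 (-0.23, adjusted p = 0.0978). Read depth limits Acox2 and, after E13, Far2.

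Libraries that share a replicate number across stages share only that number (correlations of their deviations -0.059 to 0.292). With the replicate block 25 members were called over 7 stages, 19 for P14 against E17 and 8 for P60 against P14, where 89.2%, 57.0% and 30.3% of all genes were called. Under the block the calls of Pex19 from P14 to P60 (adjusted p = 0.051) and Scp2 from P1 to P5 (adjusted p = 0.0575) were lost, and Pex5 from E17 to P14 passed (adjusted p = 0.0439).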
